A study of Mus musculus with 10 samples.

Results

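Hox genes encode homeodomain transcription factors that give cells their position along the head-to-tail axis of the embryo. The genes examined were all protein-coding genes of the count tables whose mouse symbol is Hoxa, Hoxb, Hoxc or Hoxd followed by digits, which gave 39 of 43629 gene identifiers. They were chosen by name, as known targets of the histone H3 lysine 79 methyltransferase DOT1L in leukaemia, and no expression value enters the rule. RNA-seq of total RNA was available for 10 libraries of dorsal telencephalon, the embryonic tissue that forms the cerebral cortex, from C57BL/6 mouse embryos at E14.5. The 5 control embryos carried no Cre and had 1 floxed Dot1l allele (Dot1l-cKO f/+). The 5 Dot1l-cKO embryos had 2 floxed alleles (Dot1l-cKO f/f) and 1 copy of a Cre allele that is active in the forebrain, where it deletes both. No control carried Cre, so the presence of the Cre allele and the loss of DOT1L cannot be told apart in these groups. Per the study's methods, each replicate was a different animal. The comparison asks whether Hox genes were transcribed in the dorsal telencephalon, and whether loss of DOT1L changed this.

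The mouse Hox genes lie in 4 clusters that arose by duplication of an ancestral cluster. Within a cluster, genes with low numbers are turned on earlier and nearer to the head than genes with high numbers, and in the nervous system their domains begin in the hindbrain and run into the spinal cord, so the telencephalon normally lies in front of all of them. Polycomb complexes keep the clusters silent where they are not used, while retinoic acid, CDX factors and the Trithorax methyltransferase MLL1 (Kmt2a) activate them. In leukaemias with MLL fusion proteins, DOT1L is recruited to HOXA genes and to MEIS1, and these genes depend on it. In the GRCm38 build, the Hoxa cluster with 11 genes covered chr6:52155590-52260880 on the minus strand. The other clusters were on the plus strand, Hoxb with 10 genes at chr11:96194316-96368256, Hoxc with 9 genes at chr15:102921103-103036852 and Hoxd with 9 genes at chr2:74668310-74765142.

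Sequence upstream of the start site is shown for 3 genes that mark the range of the data. Hoxa13, a gene of the limbs and hindgut, had the window richest in CG dinucleotides and no read. Hoxa9 is the best known HOX target of DOT1L in leukaemia. Hoxd8, a gene of the trunk, had the most reads. Each window holds the 250 bases before the start site that RefSeq gives in GRCm38.p6, read along the strand of the gene, with every CG dinucleotide in capitals. The Hoxa13 window is chr6:52260881-52261130, the Hoxa9 window chr6:52227371-52227620 and the Hoxd8 window chr2:74704365-74704614. None of the 3 windows overlaps an annotated exon. The Hoxa9 window lies within an intron of longer Hoxa9 transcripts, and the Hoxd8 window within an intron of the antisense gene Hoxd3os1.
Hoxa13: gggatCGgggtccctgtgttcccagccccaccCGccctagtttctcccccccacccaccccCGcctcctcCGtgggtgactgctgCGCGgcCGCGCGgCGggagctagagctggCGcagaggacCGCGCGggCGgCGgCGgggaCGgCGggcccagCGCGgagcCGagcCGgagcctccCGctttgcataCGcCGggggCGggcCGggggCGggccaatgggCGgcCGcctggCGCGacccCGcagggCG
Hoxa9: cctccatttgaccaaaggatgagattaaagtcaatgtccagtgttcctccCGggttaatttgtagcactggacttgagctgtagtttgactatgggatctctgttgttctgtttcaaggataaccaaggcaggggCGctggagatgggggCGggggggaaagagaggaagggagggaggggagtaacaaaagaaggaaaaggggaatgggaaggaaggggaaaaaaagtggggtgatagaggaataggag
Hoxd8: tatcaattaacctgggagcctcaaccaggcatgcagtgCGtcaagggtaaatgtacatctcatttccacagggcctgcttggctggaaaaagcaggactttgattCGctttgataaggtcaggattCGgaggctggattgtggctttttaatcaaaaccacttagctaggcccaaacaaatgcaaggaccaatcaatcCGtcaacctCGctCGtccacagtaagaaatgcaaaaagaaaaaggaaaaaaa
The Hoxa13 window held 35 CG dinucleotides, a number reached by 2.974% of the 32851 windows of all genes. The Hoxa9 window held 3, reached by 70.972% of all windows, and the Hoxd8 window held 6, reached by 50.355%. RefSeq windows were matched for 22 of the 39 Hox genes, with 24 windows in all. Their median was 12.5 CG dinucleotides, against 6 over all windows, and 19 of the 24 lay above that median. These are properties of the sequence and were not compared with the genotypes.

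Hox genes were close to silent in the dorsal telencephalon of both genotypes. Over all 39 genes and 10 libraries, 311 reads (read pairs assigned to a gene) were counted of 595732894, or 0.522 counts per 1e+06. The libraries held between 54202349 and 66556034 counts each. Of the 39 genes, 9 had no read in any library, among them Hoxa11, Hoxa13, Hoxb13, Hoxc10, Hoxc12 and Hoxd10. A count of 0 over all 10 libraries allows a level of up to 0.00503 CPM (counts per 1e+06, scaled to the TMM-normalised library size), by a limit of 3 counts that covers counting error only. In a single library, the same limit was between 0.0449 and 0.0603 CPM. The other 30 genes had at least 1 read, 28 of them in controls and 26 in Dot1l-cKO. Of these, 24 were seen in both groups, 4 only in controls and 2 only in Dot1l-cKO. No test of these last counts was made, since a single read decides them.

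The plot of Hox counts by library shows how thin the signal was. Of 390 values, 256 (65.6%) were 0, 12 reached 5 reads and 3 reached 10. Only Hoxb2, a gene of the hindbrain, had a read in all 10 libraries, and 13 genes had one in at least 5. The 3 largest values were 17 reads of Hoxd8 in Dot1l-cKO replicate 5, 16 reads of Hoxd8 in control replicate 5 and 13 reads of Hoxb9 in Dot1l-cKO replicate 5. With every library thinned to 54202349 counts, 276 Hox reads remained and all 30 genes were still detected.

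**Figure D1:**
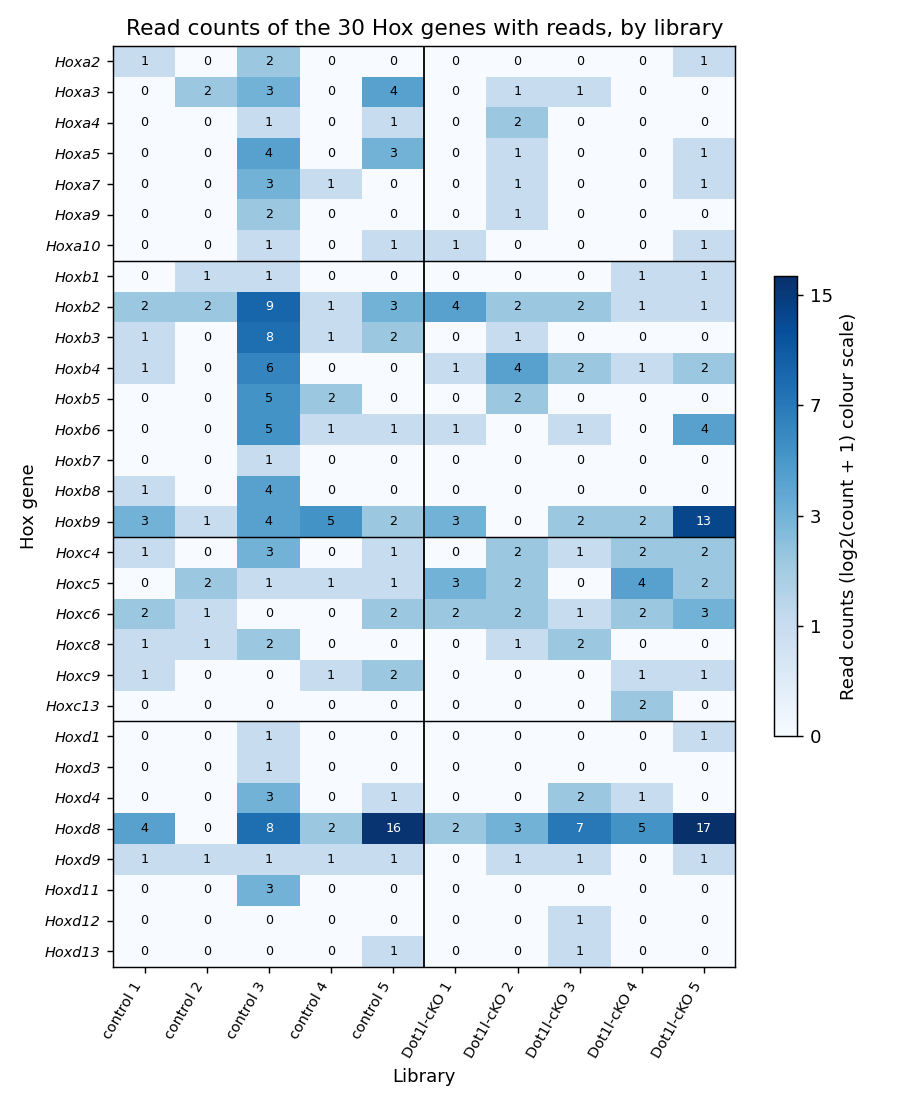
Read counts of the 30 Hox genes with at least 1 read (rows, ordered by cluster and number) in the 5 control and 5 Dot1l-cKO libraries (columns), with the count printed in each cell and a log2(count + 1) colour scale. Most cells hold 0, Hoxd8 has the highest count of 17, and control replicate 3 has reads in 25 genes.

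No Hox gene passed the low-count filter (filterByExpr), so none entered the test of genotype that was run over 17039 genes. In that test, 1212 genes (7.11%) were differentially expressed (DE, adjusted p under 0.05 in edgeR's quasi-likelihood test), with 966 higher (5.67%) and 246 lower (1.44%) in Dot1l-cKO. Among all 21474 protein-coding genes, 67.3% entered the test, and 16.0% had no read, against 23.1% of the Hox genes. Per length, the median Hox gene had 1.83 reads per kb of exon over all libraries together, against 807 for protein-coding genes. Reads were nonetheless more common in Hox genes than in olfactory receptor genes, most of which had none. Of 1020 such genes, a class chosen for reference after the data were seen, 956 (93.7%) had no read. Their median was 0 reads per kb of exon, but the highest had 291, above the highest Hox gene at 23.3. The 11 markers of midbrain, hindbrain and spinal cord, such as the homeobox genes En1 and En2, all had reads, with a median of 9.60 reads per kb. Of these markers, 1 passed the filter. Their summed level was between 0.342 and 2.25 CPM in controls and between 0.603 and 1.05 CPM in Dot1l-cKO.

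The libraries were rich in RNA of the labelled tissue. The 8 markers of dorsal telencephalon, among them Emx1, Emx2 and Tbr1, summed to between 1557 and 1669 CPM in controls and to between 1573 and 1867 CPM in Dot1l-cKO. Dot1l was at 31.3, 41.5, 36.6, 40.6 and 36.3 CPM in control replicates 1 to 5 and at 42.3, 20.1, 39.6, 43.4 and 51.7 CPM in Dot1l-cKO replicates 1 to 5, with a log2 fold change of 0.08 ± 0.20 (SE, adjusted p = 0.864). Reads over the whole gene were counted together, so this value says nothing of the floxed exons.

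Summed over all 39 genes, the Hox level overlapped widely between the groups. Controls had 19, 11, 82, 16 and 42 Hox reads in replicates 1 to 5, and Dot1l-cKO had 17, 26, 24, 22 and 52. The summed levels were 0.382, 0.193, 1.23, 0.249 and 0.677 CPM in controls, with a mean of 0.546 ± 0.425 CPM (SD, n = 5). In Dot1l-cKO they were 0.321, 0.451, 0.42, 0.332 and 0.837 CPM, with a mean of 0.472 ± 0.212 CPM (SD, n = 5). The difference of the means was smaller than the spread in either group. The lowest and the highest library were both controls. Control replicate 3 alone held 26.4% of all Hox reads, and 3 genes, Hoxb7, Hoxd3 and Hoxd11, had reads in no other library.

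The direction of the summed difference rested on single libraries. Pooled over libraries, 170 control reads and 141 Dot1l-cKO reads gave a Dot1l-cKO to control ratio of 0.839 (95% interval 0.667 to 1.06, from counting error only). Without control replicate 3, the ratio was 1.26 (0.959 to 1.66). Without Dot1l-cKO replicate 5, the highest of its group, it was 0.67 (0.513 to 0.871), and without both it was 1.01 (0.741 to 1.37), from 88 and 89 reads. The number that opens the column names of the authors' normalised tables, which no source explains, is 57 for replicates 2 and 3 of both groups and differs from that in the others. Within the libraries numbered 57, the pooled level was 0.751 CPM in control and 0.435 CPM in Dot1l-cKO libraries. In the other 6 libraries it was 0.437 CPM in control and 0.501 CPM in Dot1l-cKO libraries, so the sign was opposite there.

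The libraries with the most Hox reads also had the most RNA of mesenchyme. The 9 markers of meninges and mesenchyme, among them the collagens Col1a1 and Col3a1, summed to 169, 225, 874, 33.3 and 319 CPM in control replicates 1 to 5 and to 291, 43.3, 227, 37.1 and 799 CPM in Dot1l-cKO replicates 1 to 5. The 3 highest sums belonged to control replicate 3, Dot1l-cKO replicate 5 and control replicate 5, which were also the 3 libraries with the highest summed Hox level. The 7 erythroid markers, mostly globins, were highest in control replicate 3 (2481 CPM) and Dot1l-cKO replicate 5 (2158 CPM) and ranged from 575 to 1379 CPM in the other 8 libraries. The 6 endothelial markers were highest in the same 2 libraries, at 210.3 and 243 CPM, and ranged from 103 to 175 CPM in the others. The 5 skin markers summed to 6.19 CPM in control replicate 3, the highest library, but to 2.21 CPM in Dot1l-cKO replicate 5, the lowest of its group. None of these 4 lists had a member at 0 in all libraries. Of their tested members only the skin gene Trp63 was DE, against 7.11% of all genes tested. The part of these tissues in the Hox reads was not tested. In bulk tissue, fewer cells of a type and less RNA per cell cannot be told apart.

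**Figure D2:**
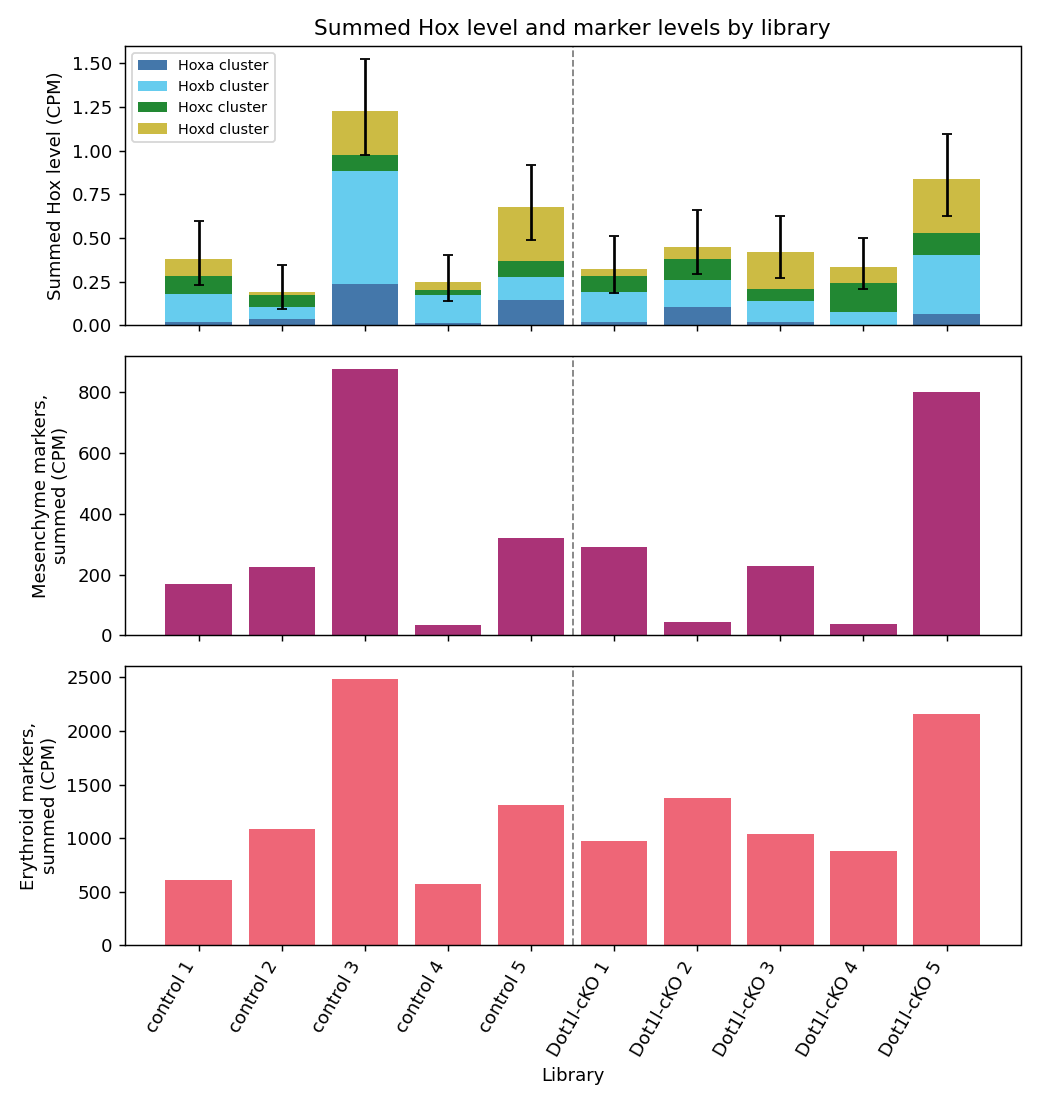
Summed Hox level (top, CPM, stacked by cluster, with the 95% counting interval of the sum as a bar), summed meninges and mesenchyme markers (middle, CPM) and summed erythroid markers (bottom, CPM) in each library. Control replicate 3 and Dot1l-cKO replicate 5 are highest in all 3 panels.

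Other tissue markers did differ between the genotypes, where 7.11% of all genes tested were DE. All 7 microglia and macrophage markers, among them Cx3cr1 and Csf1r, were higher in Dot1l-cKO, with summed levels of 40.8 to 69.2 CPM in controls and 84.0 to 122 CPM in Dot1l-cKO. Aif1 lost its call with the replicate block (adjusted p = 0.073) and without the filter (0.0664). Aif1 and Csf1r each lost it in 8 of the 10 fits that left out 1 library (adjusted p up to 0.1 and 0.105), and C1qb in that without control replicate 1 (0.0535). The 8 ventral telencephalon markers summed to between 54.6 and 279.6 CPM in controls and to between 5.36 and 81.6 CPM in Dot1l-cKO, and of the 7 tested 1, Lhx6, was DE. Of 5 skin markers, Trp63 was higher in Dot1l-cKO, and of the dorsal markers, Pax6 was lower. Trp63 was not DE without the filter (adjusted p = 0.0521) nor Pax6 without header number 57 (0.23), and each lost its call in 7 of the 10 fits that left out 1 library (adjusted p up to 0.0796 and 0.0801). Within each group, the library with the most Hox reads, control replicate 3 and Dot1l-cKO replicate 5, had the highest microglia sum (69.2 and 122 CPM) and the lowest ventral sum (54.6 and 5.36 CPM). The part of these cells in the Hox counts was not tested.

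By cluster, Hoxb held 124 of the 311 reads (39.9%), Hoxd 88 (28.3%), Hoxc 58 (18.7%) and Hoxa 41 (13.2%). Hoxa had 29 reads in controls and 12 in Dot1l-cKO, a ratio of 0.419 (0.195 to 0.846). Of the 29 control reads, 16 came from control replicate 3, and without it the ratio was 0.726 (0.303 to 1.73). Hoxb had 73 and 51 reads, a ratio of 0.707 (0.484 to 1.02), which became 1.34 (0.836 to 2.17) without that library. Hoxc had 23 reads in controls and 35 in Dot1l-cKO, a ratio of 1.54 (0.885 to 2.73), and Hoxd had 45 and 43, a ratio of 0.967 (0.622 to 1.503). Without control replicate 3 these were 1.62 (0.883 to 3.08) and 1.21 (0.733 to 2.02). With Dot1l-cKO replicate 5 left out as well, the ratios were 0.612 (0.22 to 1.59) for Hoxa, 0.995 (0.58 to 1.71) for Hoxb, 1.58 (0.831 to 3.09) for Hoxc and 0.853 (0.473 to 1.53) for Hoxd. These intervals leave out the spread between embryos, which was larger than counting error, as the range from 11 to 82 reads among controls shows.

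**Figure D3:**
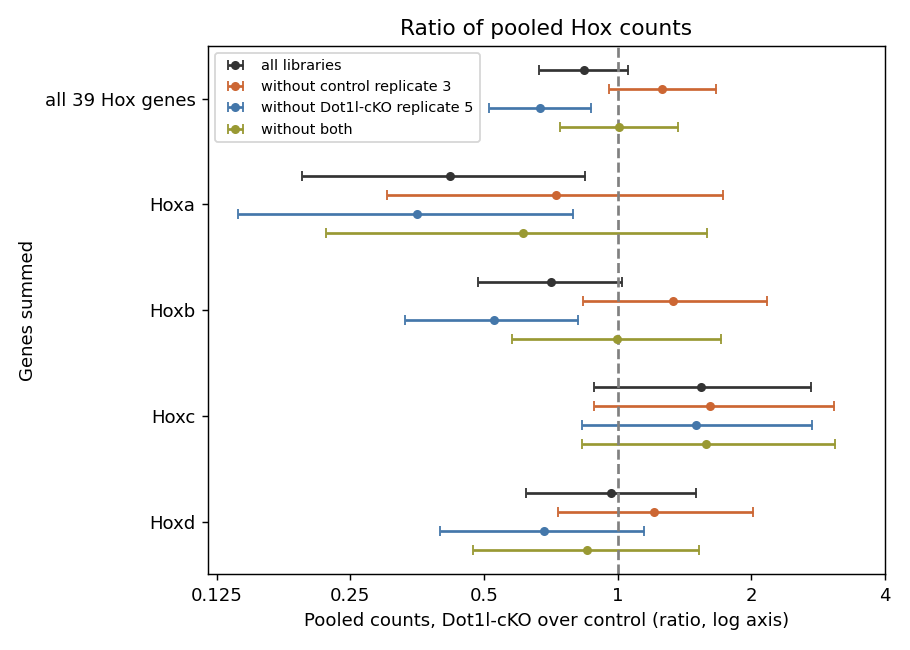
Ratio of pooled Hox counts, Dot1l-cKO over control, scaled to library size (log axis), for all 39 genes and for each cluster, with 95% counting intervals. With all libraries every interval except that of Hoxa crosses 1. All 5 cross 1 without control replicate 3 and without both libraries, while those of all Hox genes, Hoxa and Hoxb lie below 1 without Dot1l-cKO replicate 5 alone.

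Genes at the posterior end of the clusters had the fewest reads. Of the 16 genes of groups 9 to 13, which pattern the posterior trunk, limbs and genital region, 7 had no read. The 12 genes of groups 10 to 13 had 12 reads together. Groups 1 to 4, which act in the hindbrain and neck, had 63 reads in controls and 39 in Dot1l-cKO, a ratio of 0.627 (0.409 to 0.949) that became 1.23 (0.724 to 2.12) without control replicate 3. Groups 5 to 8 had 75 and 70 reads, and groups 9 to 13 had 32 and 32. Of the last 32, 16 came from Dot1l-cKO replicate 5, and without it the ratio of groups 9 to 13 went from 1.01 to 0.64 (0.328 to 1.2).

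The 10 genes with the most reads held 223 reads (71.7%). Hoxd8 had 64 reads, 20.6% of the total. Its counts were 4, 0, 8, 2 and 16 in control replicates 1 to 5 and 2, 3, 7, 5 and 17 in Dot1l-cKO replicates 1 to 5. Replicate 5 was highest in both groups, and these 2 libraries held 33 of the 64 reads. Per kb of exon, Hoxd8 was at 0.0357 ± 0.0367 FPKM (CPM per kb of exon, SD, n = 5) in controls and at 0.0409 ± 0.0349 FPKM (SD, n = 5) in Dot1l-cKO. The groups overlapped over almost their whole range.

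Of the Hoxb genes, Hoxb9, of the thoracic spinal cord, had 3, 1, 4, 5 and 2 reads in controls and 3, 0, 2, 2 and 13 in Dot1l-cKO. Replicate 5 held most of the Dot1l-cKO reads. Hoxb2 had 2, 2, 9, 1 and 3 reads in controls and 4, 2, 2, 1 and 1 in Dot1l-cKO. Hoxb4, which also acts in blood stem cells, had 1, 0, 6, 0 and 0 in controls and 1, 4, 2, 1 and 2 in Dot1l-cKO. The reads of both genes in controls lay mostly in replicate 3. Hoxb3, of the hindbrain, had 1, 0, 8, 1 and 2 reads in controls and 0, 1, 0, 0 and 0 in Dot1l-cKO. Hoxb6, of the trunk, had 0, 0, 5, 1 and 1 reads in controls and 1, 0, 1, 0 and 4 in Dot1l-cKO. Every one of these genes overlapped between the groups.

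The Hoxc genes were spread more evenly over the libraries. Hoxc5 had 0, 2, 1, 1 and 1 reads in controls and 3, 2, 0, 4 and 2 in Dot1l-cKO. Hoxc6 had 2, 1, 0, 0 and 2 reads in controls and 2, 2, 1, 2 and 3 in Dot1l-cKO. Hoxc4 had 1, 0, 3, 0 and 1 reads in controls and 0, 2, 1, 2 and 2 in Dot1l-cKO. These 3 neighbours pattern the cervical and upper thoracic trunk. In the annotation, Hoxc5 shares 5.37% of its exon length with Hoxc10, so its count is uncertain to that extent.

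Among the Hoxa genes, which include the leukaemia targets of DOT1L, only Hoxa3, of the neck and pharyngeal arches, was among the 10. It had 0, 2, 3, 0 and 4 reads in controls and 0, 1, 1, 0 and 0 in Dot1l-cKO. Hoxa9 had 3 reads in all, 2 in control replicate 3 and 1 in Dot1l-cKO replicate 2. Hoxa10, which is also active in blood progenitors, had 4, Hoxa7 had 6 and Hoxa5 had 9. A difference of genotype in Hoxa9 was not detectable at this depth. The other 20 genes with reads had between 1 and 9 each.

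A fit without the low-count filter allowed the 30 Hox genes with reads to be tested among 28447 genes. None was DE, against 973 genes (3.42%) over all genes in that fit. At an unadjusted p under 0.05 there was 1 Hox gene, against 14.7% of all genes. It was Hoxb3, with a log2 fold change of -2.92 ± 1.11 (SE, adjusted p = 0.216 in edgeR's quasi-likelihood test). Its 12 control reads, 8 of them in control replicate 3, against 1 read in Dot1l-cKO gave a pooled ratio of 0.0843 (0.00197 to 0.57). With the replicate number as a block and the filter, 9.41% of all genes were DE and no Hox gene was tested. With the block and no filter, no Hox gene was DE, against 5.57% of all genes. None had an unadjusted p under 0.05 there, against 18.5% of all genes, and the lowest adjusted p was 0.322. DESeq2 gave no Hox gene an unadjusted p under 0.05, and it gave an adjusted p for 1 of them, Hoxd8 (0.943), while 10.4% of all genes with an adjusted p were DE. Hoxd8 had a log2 fold change of 0.18 ± 0.72 (SE, adjusted p = 0.932). The interval of its pooled ratio ran from 0.681 to 1.94, so a change within these bounds could not be seen in its counts, even before the spread between embryos is counted. No Hox gene had groups that did not overlap, against 5.52% of all genes with a read. Of all Hox values 65.6% were 0, and 20 of the 30 genes had 1 to 9 reads in all. Calls and groups without overlap were thus hardly possible for most of them. The shares over all genes therefore do not show whether Hox genes respond less than others.

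Genes that passed the filter lay outside the clusters, not among the Hox genes. Inside the clusters lay 45 other annotated genes, among them 16 of the miscellaneous RNA class of the annotation, 9 antisense genes, 6 microRNA genes and 3 protein-coding genes. Of these, 32 had no read, among them the long non-coding RNA genes Hotair and Hotairm1 and the hairpins of Mir10a, Mir10b and Mir196b, and none passed the filter. Together they had 57 reads, of which Gm53 in the Hoxb cluster had 21. The hairpin entries are short, at 0.11 kb for Mir10a, 0.068 kb for Mir10b and 0.085 kb for Mir196b. A count of 0 therefore says little of their level. Within 200 kb outside the clusters lay 46 genes with 704344 reads together, of which Cbx5 alone had 422923, while 14 had no read and 15 passed the filter. Evx1 and Evx2, homeobox genes at the ends of the Hoxa and Hoxd clusters, had 3 and 4 reads. Halr1, a non-coding gene 41.9 kb from the Hoxa cluster, had 3, 4, 17, 3 and 12 reads in controls and 5, 2, 2, 2 and 15 in Dot1l-cKO. Its 3 highest libraries were those with the highest summed Hox level.

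Of the 15 flanking genes tested, 3, all beside the Hoxb cluster, were DE, 1 higher and 2 lower, against 7.11% of all genes tested (5.67% higher, 1.44% lower). Igf2bp1, an RNA-binding protein gene of growing progenitors 188 kb from the cluster (chr11:95957163-96005940), was at 149.8, 139, 128, 121 and 103 CPM in control libraries and at 49.1, 39.2, 56.4, 49.5 and 58.2 CPM in Dot1l-cKO. Every Dot1l-cKO library lay below every control, with a log2 fold change of -1.35 ± 0.12 (SE, adjusted p = 0.00018 in edgeR). Skap1, an adaptor of T cell receptor signalling on the other side of the cluster (chr11:96464593-96759130), was at 1.41, 0.772, 1.02, 1.23 and 1.39 CPM in controls and at 2.11, 2.76, 2.12, 3.27 and 2.24 CPM in Dot1l-cKO. Its groups did not overlap either, with a log2 fold change of 1.10 ± 0.20 (SE, adjusted p = 0.00774). Among all tested genes, 8.35% had groups that did not overlap. Gm29202, an antisense gene at the edge of Igf2bp1, was at 0.804, 0.824, 0.658, 0.84 and 1.11 CPM in control libraries and at 0.528, 0.555, 0.49, 0.467 and 0.37 CPM in Dot1l-cKO, with a log2 fold change of -0.81 ± 0.19 (SE, adjusted p = 0.0256). With the replicate block its adjusted p was 0.0611, and it was between 0.0521 and 0.0643 in each of the fits that left out control replicate 1, 2 or 4 or Dot1l-cKO replicate 1, 3, 4 or 5.

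The flanking genes with the most reads were Cbx5, Igf2bp1, Atp5g1, Ube2z and Calcoco1. Cbx5, the heterochromatin protein HP1 alpha, beside the Hoxc cluster, was at 855, 823, 722, 727 and 719 CPM in control libraries and 688, 712, 716, 613 and 559 CPM in Dot1l-cKO. The groups did not overlap, but the log2 fold change of -0.23 ± 0.09 (SE, adjusted p = 0.173) did not pass the test. Atp5g1, a subunit of the mitochondrial ATP synthase, was at 79.1, 74, 75.2, 75 and 76.8 CPM in control libraries and 84.6, 95.3, 83.5, 94.3 and 73.5 CPM in Dot1l-cKO, with a log2 fold change of 0.18 ± 0.08 (SE, adjusted p = 0.197). Ube2z, a ubiquitin-conjugating enzyme, was at 78.8, 84, 84.5, 76.3 and 73.3 CPM in control libraries and 75.4, 83.9, 85.8, 76.2 and 74.8 CPM in Dot1l-cKO, with a log2 fold change of -0.00 ± 0.07 (SE, adjusted p = 0.988). Calcoco1, a coactivator of transcription, was at 70.1, 49.9, 48.6, 68.3 and 72.1 CPM in control libraries and 74.3, 48.1, 48.7, 83.3 and 85.4 CPM in Dot1l-cKO, with a log2 fold change of 0.14 ± 0.19 (SE, adjusted p = 0.741). The groups of the last 3 genes overlapped. In mean level, Cbx5 was at 85.4 ± 7.20 FPKM (SD, n = 5) in controls. Per kb of exon, the Hox gene with the most reads, Hoxd8, was at 0.0409 FPKM or less in the group means.

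**Figure D4:**
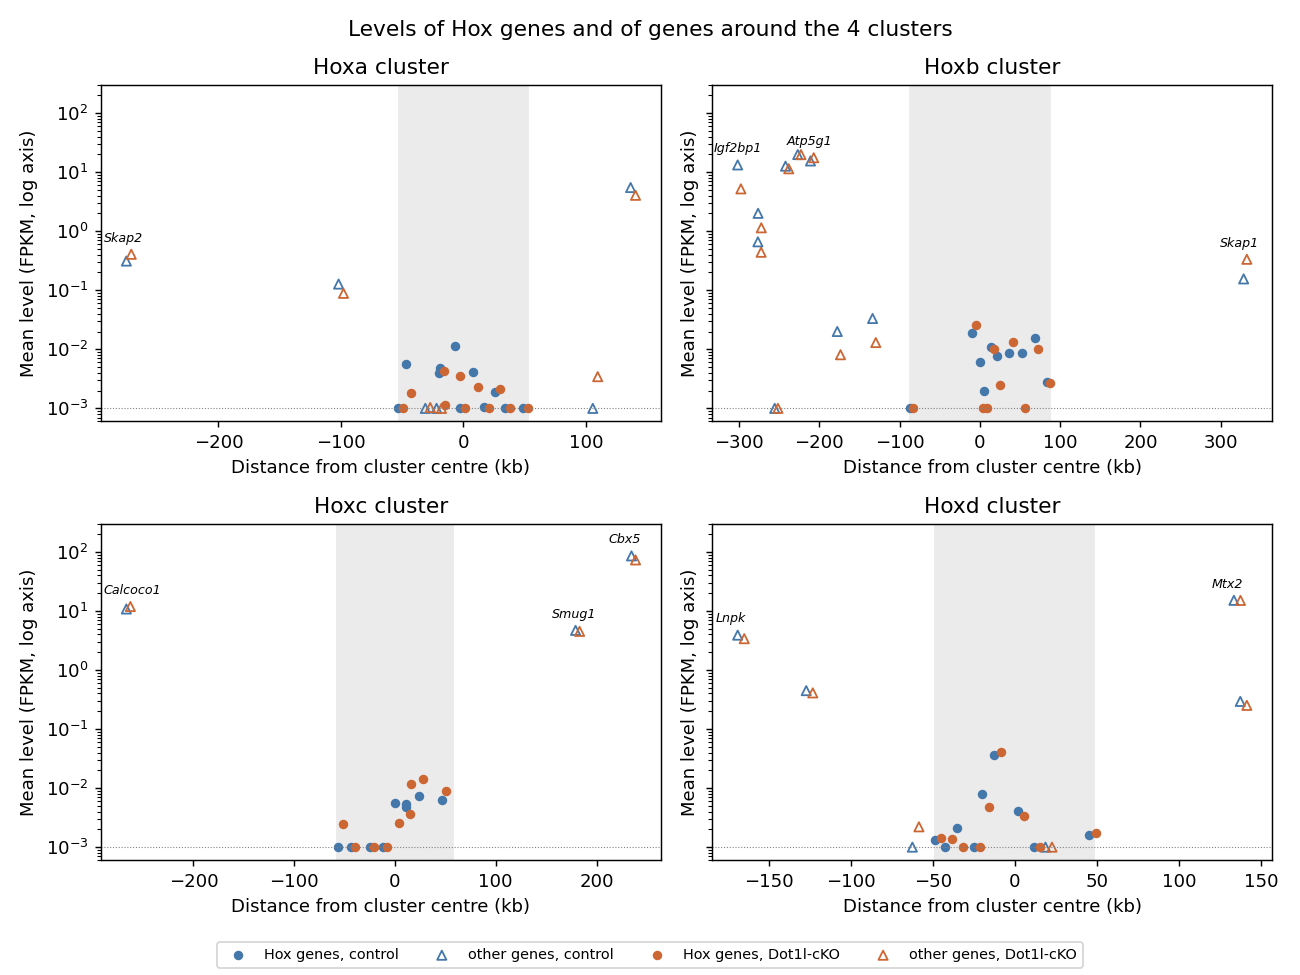
Mean level (FPKM, log axis) of Hox genes (circles) and of other genes in or near each cluster (triangles, protein-coding genes and others with at least 50 reads) against distance from the cluster centre in kb, in controls (blue) and Dot1l-cKO (orange), with genotypes shifted sideways by 2 kb each. Grey marks the cluster, and values under the dotted line at 0.001 FPKM are drawn on it. No Hox gene reaches the level of Cbx5 at 85.4 FPKM or of Skap1 in controls at 0.156 FPKM.

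The partners of HOX proteins were expressed, unlike most Hox genes. All 9 TALE homeodomain genes (Meis, Pbx and Pknox families), whose proteins bind DNA with HOX proteins and with other factors, were tested. None was DE, against 7.11% of all genes tested, and in a list this short that is close to the share. Their median log2 fold change was -0.18, against -0.01 over all tested genes. Meis2 was at 31.3 ± 3.70 FPKM (SD, n = 5) in controls and 26.3 ± 2.30 FPKM (SD, n = 5) in Dot1l-cKO (adjusted p = 0.154). Meis1, the leukaemia target, was at 17.5, 9.49, 7.69, 23.7 and 23.5 CPM in control and 16.8, 16.1, 19.2, 19.8 and 11.8 CPM in Dot1l-cKO libraries. Its log2 fold change was 0.03 ± 0.30 (SE, adjusted p = 0.97), and the sign differed between libraries, with 1.06 ± 0.18 (SE, adjusted p = 0.135) within header number 57 and -0.43 ± 0.20 (SE, adjusted p = 0.286) in the others.

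Genes of the complexes that silence the clusters were also expressed. All 30 Polycomb genes were tested, 1 was higher, 1 was lower and 28 were not DE, with a median log2 fold change of -0.08. Phf19, an accessory subunit of Polycomb repressive complex 2, was at 4.64, 6.47, 5.57, 6.46 and 5.08 CPM in controls and at 8.84, 9.83, 10.04, 10.09 and 8.79 CPM in Dot1l-cKO. The groups did not overlap, with a log2 fold change of 0.75 ± 0.12 (SE, adjusted p = 0.00318). Cbx2, a subunit of Polycomb repressive complex 1, was at 69.8, 78.7, 76.0, 67.5 and 61.7 CPM in controls and at 52.4, 54.6, 60.4, 61.3 and 56.6 CPM in Dot1l-cKO. Its log2 fold change was -0.31 ± 0.08 (SE, adjusted p = 0.0382), and the call was lost in 9 of the 10 fits that left out 1 library, all but that without control replicate 5, with an adjusted p between 0.0501 and 0.0952. Over all genes tested, 7.11% were DE. With the replicate block, 2 Polycomb genes were higher and 6 lower, against 9.41% of all genes DE in either direction.

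Of 18 Trithorax and retinoid genes upstream of Hox, 13 were tested. None was DE, against 7.11% of all genes tested, with a median log2 fold change of -0.24. Cdx2, an activator of posterior Hox genes, had no read in any library. Kmt2a was at 9.63 ± 1.72 FPKM (SD, n = 5) in controls and 8.15 ± 2.98 FPKM (SD, n = 5) in Dot1l-cKO (adjusted p = 0.645). Rara, a retinoic acid receptor named after its values were seen, was at 14.1, 9.38, 10.6, 16.1 and 14.7 CPM in control and 7.49, 3.17, 6.25, 8.86 and 8.63 CPM in Dot1l-cKO libraries. Its adjusted p was 0.0564 without the block and 0.0068 with it. All 7 partners of DOT1L in leukaemia, such as Mllt3 and Aff4, were tested. None was DE, against the same 7.11%, with a median log2 fold change of -0.04. In lists this short, having no call is close to that share.

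**Figure D5:**
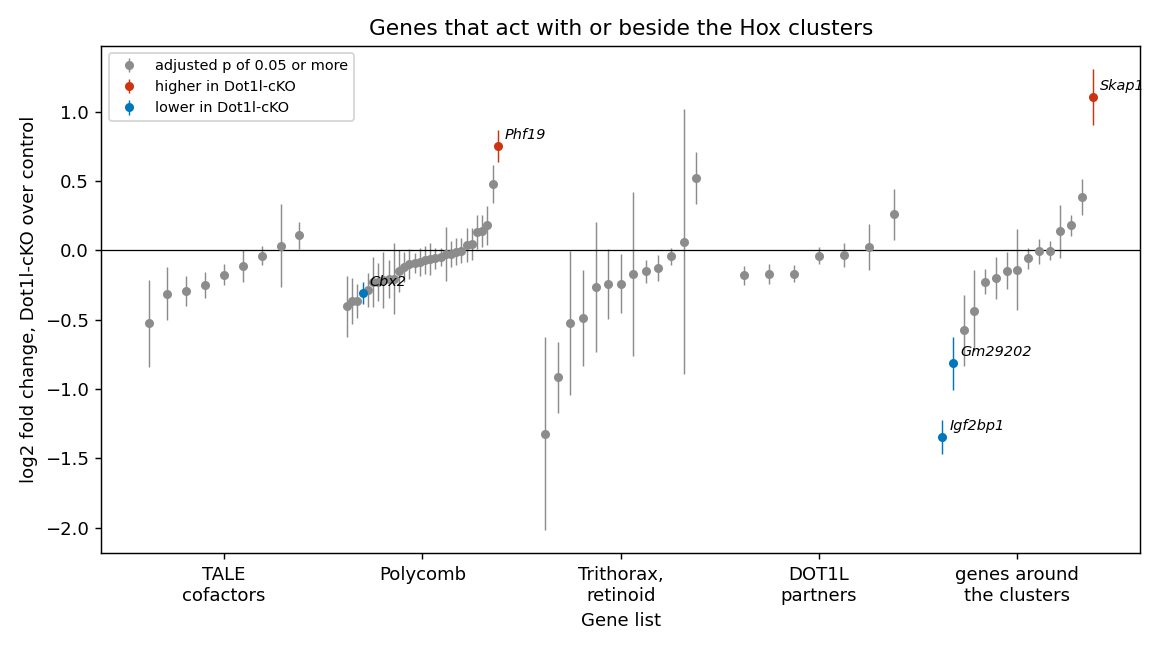
Log2 fold change, Dot1l-cKO over control, with its SE as a bar, for each tested gene of the 4 lists and for the 15 tested genes around the clusters. Coloured points had an adjusted p under 0.05 in edgeR, namely Phf19 and Skap1 (higher), and Cbx2, Gm29202 and Igf2bp1 (lower).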

How the data were processed

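Total RNA of 5 control and 5 Dot1l-cKO dorsal telencephalon samples was sequenced as stranded paired-end libraries. Per the labels and the submitters' processing notes, the authors used Trim Galore 0.2.8, TopHat2 2.0.9 on mm10 and HTSeq 0.6.0 in its reverse-stranded mode, and deposited whole-number counts per gene. The authors also deposited a normalised signal, which is these counts divided by a DESeq2 1.6.1 size factor, as a constant ratio within each sample showed. That signal was not tested. Reads of a gene that shares same-strand exons with another may be dropped by the counter. This concerns 9 Hox genes, of which Hoxd3 and Hoxd4 overlap most, so their counts are lower limits.

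Symbols and coordinates came from GENCODE M21 on GRCm38, which is not the release the authors counted on, and 42462 of 43629 identifiers matched. Identifiers without a symbol held 0.268% of counts. Counts were tested with edgeR 4.0.16 in R 4.3.3 (filterByExpr, TMM, quasi-likelihood test, Benjamini-Hochberg adjustment over all genes tested, threshold 0.05). The SE of a log2 fold change is approximate. Intervals are exact Poisson or conditional binomial at 95% and cover counting error only, not the spread between embryos. Reads had no molecular identifiers, so duplicate reads could not be told from separate molecules, and the intervals may be too narrow. The 20 pairs of replicates within a group differed beyond sampling noise (chi-square per degree of freedom at least 30.8), so each sample was counted as 1 replicate. The test was tried on simulated counts.

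The Hox genes and all lists were chosen with earlier results of these data known. Values in every sample are given for the 10 Hox genes with the most reads, DE members of the context lists (not of the marker lists), the 5 flanking genes with the most reads, and Dot1l. Some genes of the rule and of the lists are not reported here. The replicate number of the titles was taken as a pairing in an alternative with a replicate block, which is an assumption. Same-numbered replicates of the groups share their header number, but replicates 2 and 3 all carry 57. Same-numbered samples of the 2 groups correlated in their deviations from the group means (0.229, 0.349, 0.145, 0.597 and 0.131 for replicates 1 to 5). For control replicates 1 and 4 the same-numbered sample correlated best. Control replicates 2, 3 and 5 correlated as much or more with another, namely Dot1l-cKO replicates 3 (0.35), 5 (0.446) and 4 (0.294). Control embryos were littermates per the study's methods. Other alternatives were DESeq2 1.42.0, DESeq2 size factors, other filters, each sample left out, and the libraries with or without header number 57. Chosen after the data were seen were fits without a filter joined with these, and ratios without control replicate 3, Dot1l-cKO replicate 5 or both.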

Additional observations from a re-analysis of the deposited data

Results flagged for a closer look

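In groups of 5, a sample was singled out where its gap to the nearest other sample exceeded 0.71 of the whole range of the group (Dixon's 95% limit). For normal values chance gives this in about 1 of 20 groups. With counts this low the rate is not known, since 1 read among zeros always meets the limit, and the 52 groups examined share reads, so the 8 that had such a sample are not set against chance. Control replicate 3 stood apart in summed Hoxb genes (0.643 CPM against a group median of 0.156, gap 0.842 of the range), Hoxb2 (gap 0.724), Hoxb3 (0.73), Hoxb4 (0.776) and Hoxb6 (0.784). Dot1l-cKO replicate 5 stood apart in the summed level of all Hox genes (0.837 CPM against a median of 0.42, gap 0.748) and in Hoxb9 (0.209 CPM against a median of 0.035, gap 0.73). Both libraries also had the highest mesenchyme, erythroid and endothelial marker sums, whose part in these values was not tested. Hoxb3 in Dot1l-cKO replicate 2 (gap 1) was a single read in a group otherwise at 0.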

How the results depend on the processing

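No Hox gene was DE under any alternative, but many of these could not have called one. With the filter, no Hox gene was tested in the main fit, with the replicate block or in either header-number split. DESeq2 gave an adjusted p for 1 Hox gene. The means of the summed Hox level moved by less than the spread between replicates in each alternative. The number of Hox genes detected, 30 at 1 read or more, was 7 at 5 reads and 2 at 10 reads in a sample. Over all genes, DESeq2 called 2011 genes, 663 of them lower, against 1212 and 246. Without header number 57 there were 745 (590 higher, 155 lower), and with only those libraries 1 (1 higher, 0 lower), with 2 samples a group. With the replicate block 495 genes were lower. Leaving out each sample gave between 750 and 1357 genes, 624 to 1076 higher and 126 to 343 lower. Among genes around the clusters, Igf2bp1 and Skap1 were DE with the replicate block and with each sample left out, but Skap1 was not without header number 57 (adjusted p = 0.0619), nor was either with only those libraries (adjusted p = 0.0842 and 0.173), where Phf19 was not either (0.191). Cbx2 was not DE without the filter (adjusted p = 0.051) or in either header-number split. Gm29202 was not DE without the filter (0.0536), in either split or in most fits with a sample left out. Beyond Gm29202, Aif1, Rara and the Polycomb genes, the replicate block changed no other call among the genes named. Depth limits every single Hox gene.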
